A study of Mus musculus with 4 samples.

Results

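The genes described here encode the nuclear subunits of the mitochondrial respiratory chain and of the ATP synthase. They were taken from the platform annotation as every gene whose symbol follows the naming of complex I (Ndufa, Ndufb, Ndufc, Ndufs and Ndufv with a number), complex III (Uqcr), complex IV (Cox4 to Cox8) or the ATP synthase (Atp5). The rule found 76 genes of 18193 with a probe set of their own: 34 of complex I, 8 of complex III, 17 of complex IV and 17 of the ATP synthase. They were measured by 154 of the 45037 probe sets. The rule reads gene symbols alone, and the complex of a gene was read from its symbol too.

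Expression was measured with 4 Affymetrix arrays on mouse embryonic fibroblasts (MEFs, connective tissue cells grown from embryos), 1 array per group. The p65+/+ cells kept Rela, which encodes p65, a DNA-binding subunit of NF-kB, and the p65-/- cells were null for it. All 4 groups carried the retroviral construct pBabe-HRASG12V-Hygro, which brings in an active form of H-Ras and a hygromycin resistance gene, and all were grown in DMEM with 10% serum. The groups labelled p65+/+Ras and p65-/-Ras were cultured cells never placed in an animal ("pre-injection"). The groups p65+/+RasTumor and p65-/-RasTumor were grown from tumours of the same cells in SCID mice, immunodeficient hosts that lack B and T lymphocytes, after collagenase digestion and 2 weeks of hygromycin selection ("tumour"). The sources used here do not give how many mice, tumours or independent MEF lines stand behind an array, so an effect of genotype and one of the line cannot be told apart.

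Complex I takes electrons from NADH, complex III passes them from ubiquinol to cytochrome c, and complex IV hands them to oxygen. The proton gradient that these steps build drives the rotary ATP synthase, whose F1 head makes ATP and whose membrane part and stalk carry the protons and hold the head still. Each complex joins subunits that do the chemistry to many supernumerary subunits needed for assembly and stability, and a few further subunits of each come from the mitochondrial genome, whose genes had 0 single-gene probe sets on the table used.

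Values are the authors' deposited linear signals, given throughout in the order p65+/+ pre-injection, p65+/+ tumour, p65-/- pre-injection and p65-/- tumour. A difference is in log2, where -1 stands for a 2-fold lower signal. The median signal of an array (87.8 to 93.4) served as its floor. A gene entered a comparison if either array reached the floor, values under the floor were set to it, and from 2-fold upward it was counted as lower or higher. Since each group is 1 array, no replicate backs a value, nothing could be tested, and the number of arrays limits the precision. The only measure of technical spread was that between probe sets of 1 gene, whose differences before injection had a standard deviation (SD) of 0.15 within the 37 members with several compared probe sets and of 0.48 over all such genes.

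Rela itself had signals of 1479, 1457, 214 and 209, so both p65-/- arrays were low in the targeted gene. The p65-/- pre-injection array stood apart from the other 3: 11153 of its probe sets reached a signal of 200, against 13015 to 13419. That array enters both the genotype comparison before injection and the tumour comparison of p65-/- cells. Of 8 fibroblast markers, 7 were above the median on all arrays and Fap was below it on all. Thy1, 1 of the 7, had signals of 1126, 993, 88.6 and 409. On the p65-/- pre-injection array it was thus barely above that array's median of 87.8. The summed signal of the 8 was 36321 to 41344. Macrophage markers were below it on all arrays for 3 of 4 genes (Csf1r was the exception), and the summed signal of the 4 genes was 381 to 460. Endothelial markers were below it for 2 of 3 genes, with summed signals of 211 to 241. Of the 3 epithelial markers, Epcam was above the median on all arrays and Cdh1 below it on all, and the set summed to 252 to 302. Of the 4 muscle markers, 3 were above it on all arrays (Acta1, Myod1 and Ckm) and Myh1 was below it on all. The muscle set summed to 529 to 592. The part of these markers in the results was not tested.

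Of the 76 members, 70 were above the floor on all 4 arrays. Cox7a1, Cox7c, Cox8b and Ndufb4 stayed below it on all arrays and were not compared. For Cox7c and Ndufb4, which every respiring cell is thought to need, the single-gene probe sets did not exceed signals of 88.5 and 23.1. A pair of probe sets annotated to Ndufb4 together with Ndufb4b and Ndufb4c had signals between 1120 and 1488, and they cannot tell these genes apart. Cox7b2 was above the floor on the p65+/+ pre-injection array alone.

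Before injection, most respiratory chain and ATP synthase genes differed little between p65-/- and p65+/+ cells, while a minority was lower in p65-/- cells. Of 72 members compared, 9 were lower by 2-fold or more (background 17.7% of 12755 genes) and 0 were higher (background 2.05%). The members' share of 12.5% lay below that of all genes. The 9 included Atp5j, Atp5pb and Atp5md of the ATP synthase, and Cox6c and Cox7b2 of complex IV. The others were Ndufa1, Ndufa2, Ndufa6 and Ndufa4, counted with complex I by symbol. The members had a median difference of -0.12 against -0.02 for all genes. Within 1.5-fold lay 51 of 72 members (70.8%), beside 66.5% of all genes. In cultured cells, fewer cells with a transcript and less of it per cell cannot be told apart.

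The array scaling bears on that median. Quantile normalization moved the median of all genes to 0.24 and scaling to a common 75th percentile moved it to 0.35. The members then had medians of 0.21 and 0.25, a distance of -0.03 and -0.10 from all genes, and 1 of 72 members was lower in each case, against 12% and 11.6% of all genes. With cyclic loess the members' median was 0.16, above that of all genes at 0.02, and 2 members were lower, against 14.5% of all genes. As deposited, 89.6% of all 2-fold differences were lower in p65-/- cells, against 63.2% after quantile normalization and 64.8% after percentile scaling. Atp5j stayed lower by 2-fold under each of these 3 scalings.

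**Figure D1:**
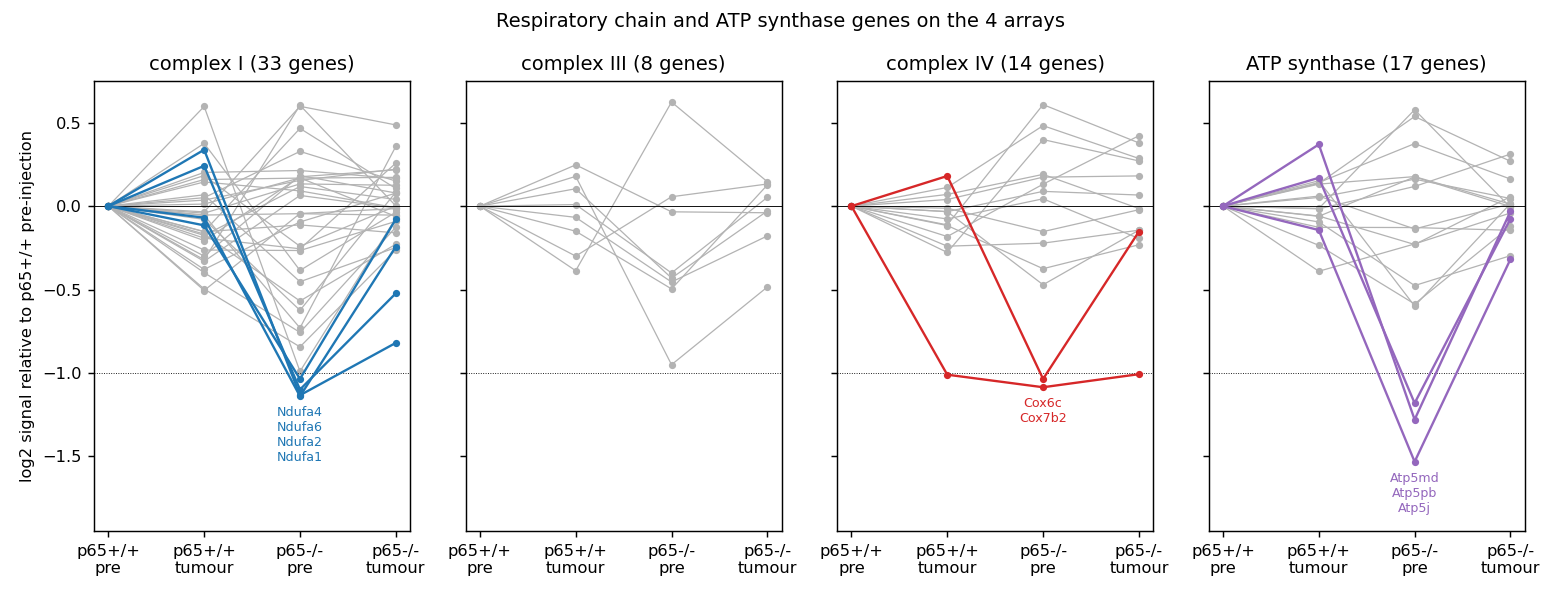
Each line is 1 gene and shows its log2 signal on the 4 arrays relative to the p65+/+ pre-injection array, by complex, with signals under the array median set to that median. The 9 genes lower by 2-fold or more before injection are coloured and named, the dotted line marks 2-fold, and Ndufa2, Ndufa6 and Cox7b2 are the ones at -0.52 or lower on the p65-/- tumour array.

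RefSeq promoter windows, 250 bases before to 50 after a gene's start on the mouse build GRCm38.p6, were at hand for 63 of the 76 members. The members' genes are known for sites of NRF1, of ETS-family factors such as GABP, of YY1 and of the estrogen-related receptors, so these were searched on both strands as GCATGCGC for NRF1, CCGGAAG for ETS, AAGATGGCG for YY1 and TGACCTTG for the receptors. No motif lies inside another, the ETS and YY1 letters can overlap in AAG, and a gene counted if any of its windows matched. The NRF1 letters stood in 12.7% of member genes with a window against 3.05% of all 27025 genes with one, the ETS letters in 23.8% against 9.93%, the YY1 letters in 9.52% against 1.64% and the receptor letters in 4.76% against 1.76%. The NF-kB consensus stood in 7.94% of members and 9.55% of all genes. Of the 7 members with a window that were 2-fold lower before injection, 1 held the NRF1 letters, 2 the ETS letters, 1 the YY1 letters, 0 the receptor letters and 0 the NF-kB consensus.
Shown here, to set genes of opposite sign side by side, are the windows of 3 members with a difference of -0.99 or lower before injection and of Uqcrc1, the member with the highest difference before injection. Each is written in the gene's direction, with the matched letters in capitals. In the Uqcrc1 window, the gc just before the capitals begins a further NRF1 match on the opposite strand, which overlaps the capitals.
Ndufa6 (chr15:82354242-82354541, minus strand, NRF1 letters): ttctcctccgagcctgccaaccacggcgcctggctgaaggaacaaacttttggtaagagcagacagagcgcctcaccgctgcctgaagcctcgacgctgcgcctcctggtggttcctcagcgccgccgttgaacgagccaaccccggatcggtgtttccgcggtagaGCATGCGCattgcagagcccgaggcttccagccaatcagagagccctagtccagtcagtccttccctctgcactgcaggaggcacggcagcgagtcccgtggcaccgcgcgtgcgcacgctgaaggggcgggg
Ndufs4 (chr13:114388045-114388344, minus strand, YY1 letters): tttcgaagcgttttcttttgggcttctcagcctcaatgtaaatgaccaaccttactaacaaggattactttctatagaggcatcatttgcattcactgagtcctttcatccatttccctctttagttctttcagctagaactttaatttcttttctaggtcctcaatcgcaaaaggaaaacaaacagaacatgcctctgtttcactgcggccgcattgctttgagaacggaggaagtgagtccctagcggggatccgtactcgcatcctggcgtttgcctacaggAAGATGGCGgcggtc
Atp5md (chr19:47090598-47090897, minus strand, ETS letters on the opposite strand): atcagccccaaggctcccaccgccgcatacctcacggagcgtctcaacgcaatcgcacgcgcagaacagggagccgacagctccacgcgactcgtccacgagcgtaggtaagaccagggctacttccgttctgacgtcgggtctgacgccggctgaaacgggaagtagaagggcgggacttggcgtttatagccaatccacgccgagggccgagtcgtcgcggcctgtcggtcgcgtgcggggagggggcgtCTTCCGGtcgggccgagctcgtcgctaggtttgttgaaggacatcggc
Uqcrc1 (chr9:108936398-108936697, plus strand, NRF1 letters): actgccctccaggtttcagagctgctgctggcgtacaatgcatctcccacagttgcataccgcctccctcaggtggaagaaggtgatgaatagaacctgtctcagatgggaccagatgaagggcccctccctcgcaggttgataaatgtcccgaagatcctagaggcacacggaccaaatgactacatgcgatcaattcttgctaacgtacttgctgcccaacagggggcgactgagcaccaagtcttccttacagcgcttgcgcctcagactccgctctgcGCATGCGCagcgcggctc
The same NRF1 letters stand in a gene that was lower (Ndufa6) and in one that was higher (Uqcrc1). A match describes the letters in the window and not a site in use.

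The ATP synthase genes did not move as 1 group. The stalk subunit F6, encoded by Atp5j, gave signals of 2229, 2018, 771 and 1788. The p65-/- pre-injection array was low and the other 3 were close together. Its difference before injection was -1.53, the lowest of all members. Atp5pb, the b subunit of the same stalk, gave signals of 2098, 2711, 864 and 2053, a difference of -1.28, and its other probe set differed by -1.17. Atp5md, a small membrane subunit, gave 735, 827, 324 and 697, a difference of -1.18. Again the p65-/- pre-injection array was the only low one.

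Of the 12 subunits outside F1, 3 were lower (25%, beside 17.7% of all genes) and the median of the 12 was -0.35. Atp5l was at -0.60, Atp5j2 at -0.59 and Atp5k at -0.48, all small membrane subunits. The other stalk subunits were nearer 0, Atp5h at -0.23 and Atp5o, which joins the stalk to the head, at -0.13. The c ring that rotates in the membrane is encoded by Atp5g1, Atp5g2 and Atp5g3, and these had differences of 0.58, 0.37 and 0.18. The 5 subunits of the F1 head had a median of 0.16 and 0 lower: Atp5d at 0.54, the catalytic Atp5b at 0.18, Atp5a1 at 0.16, Atp5c1 at 0.12 and Atp5e at -0.23. The 2 probe sets of Atp5d gave 0.54 and 0.53. A split of the 12 into c ring and other subunits was not fixed beforehand. As deposited, the 3 c ring genes had a median of 0.37 and 0 were below 0. The 9 stalk and small membrane subunits had one of -0.59 and 9 were below 0. The split thus follows the sign of the values and is no test of them. Under quantile normalization, percentile scaling and cyclic loess the c ring was at 0.53, 0.75 and 0.66. The other 9 were then at -0.22, -0.22 and -0.29, and all genes at 0.24, 0.35 and 0.02.

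In complex I, 4 of 33 subunits compared were lower (12.1%, beside 17.7% of all genes), 0 were higher (beside 2.05%), and the median was -0.09. Under the 3 scalings 0 of them were lower by 2-fold, beside 12%, 11.6% and 14.5% of all genes. Their median was then 0.25, 0.28 and 0.22, at a distance of 0.009, -0.07 and 0.20 from that of all genes. Ndufa1, a small subunit of the membrane arm, had signals of 2416, 2303, 1096 and 2042. Ndufa4, since assigned to complex IV but counted here with complex I by its symbol, had 2720, 2511, 1327 and 2577. In both, the p65-/- pre-injection array was low and the p65-/- tumour array lay within the range of p65+/+ cells or just under it. Their differences before injection were -1.14 and -1.04. Ndufa2, a subunit of the module that takes up NADH's electrons, had signals of 1895, 2395, 864 and 1074. Ndufa6, an accessory subunit of the arm that reaches into the matrix, had 961, 1136, 448 and 669. For these, both p65-/- arrays were below both p65+/+ arrays. Before injection Ndufa2 differed by -1.13 and Ndufa6 by -1.10. Ndufs4, a subunit needed to complete the NADH module, came just short of 2-fold at -0.99, with signals of 897, 1357, 451 and 853.

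The 6 core subunits of complex I, which carry the flavin and the iron-sulfur clusters, had a median of -0.02 and did not move together. Ndufv2 was at -0.84 and Ndufs1 at -0.73, while Ndufs3 was at 0.47 and Ndufs7, Ndufv1 and Ndufs8 lay between -0.11 and 0.09. Ndufv2 gave -0.84, -0.80 and -0.70 from its 3 probe sets, a spread small beside its difference. The 27 supernumerary subunits compared had a median of -0.09, with Ndufb10 at 0.60 and Ndufa10 at 0.60 as the highest. Other subunits with sizable values below 0 were Ndufa5 at -0.76, Ndufc2 at -0.62 and Ndufa13 at -0.57. Ndufv3, at -0.04, was closest to 0.

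In complex III, 0 of 8 subunits were lower by 2-fold (beside 17.7% of all genes), yet the median was -0.42 and 6 of 8 were below 0. Under the 3 scalings the median was -0.03, -0.05 and -0.11, below that of all genes in each, by -0.27, -0.39 and -0.14. Uqcrb, a ubiquinone-binding subunit, had signals of 5366, 6073, 2777 and 3835, and both p65-/- arrays were below both p65+/+ arrays. Its difference was -0.95, and its dimmer probe set gave -1.40. Uqcrc2, Uqcrh, Uqcrq and Uqcrfs1, the Rieske iron-sulfur protein, lay between -0.50 and -0.40. Uqcrc1, the partner of Uqcrc2 in the core that faces the matrix, went the other way with signals of 1422, 1087, 2191 and 1573. Both p65-/- signals were above both p65+/+ signals, and the difference before injection was 0.62.

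Counted by symbol, and so without Ndufa4, complex IV had 2 of 14 subunits compared lower (14.3%, beside 17.7% of all genes). Its median was 0.07. Under quantile normalization and percentile scaling 0 were lower, and 1 with cyclic loess, beside 12%, 11.6% and 14.5% of all genes. Cox6c had signals of 4608, 5223, 2247 and 4145, a difference of -1.04, and -0.78 from its second probe set. Cox7b2, a testis form, had 186, 29.1, 26.7 and 23.4, so the p65+/+ pre-injection array alone was above the floor and the signal was at least 2.12-fold lower in p65-/- cells. Cox5b, a subunit on the matrix side, had signals of 2656, 2457, 4050 and 3454, and both p65-/- arrays were above both p65+/+ arrays. Its 4 bright probe sets gave differences of 0.50 to 0.61. Cox5a and Cox4i1, subunits that join early in assembly, were at 0.48 and 0.40.

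The forms of complex IV subunits known from particular tissues were dim and, apart from Cox7b2, differed little. Cox4i2, the lung form, had signals of 94.6, 84.1, 101 and 99.1. Cox6a2, of heart and muscle, was at 0.04 before injection, Cox6b2 and Cox8c, of testis, were at -0.47 and 0.17. Among the general forms, Cox6a1 was at 0.19, Cox6b1 at -0.15, Cox8a at -0.22 and Cox7a2 at -0.38. Cox7a2l, a factor that joins complexes III and IV, was at 0.13.

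**Figure D2:**
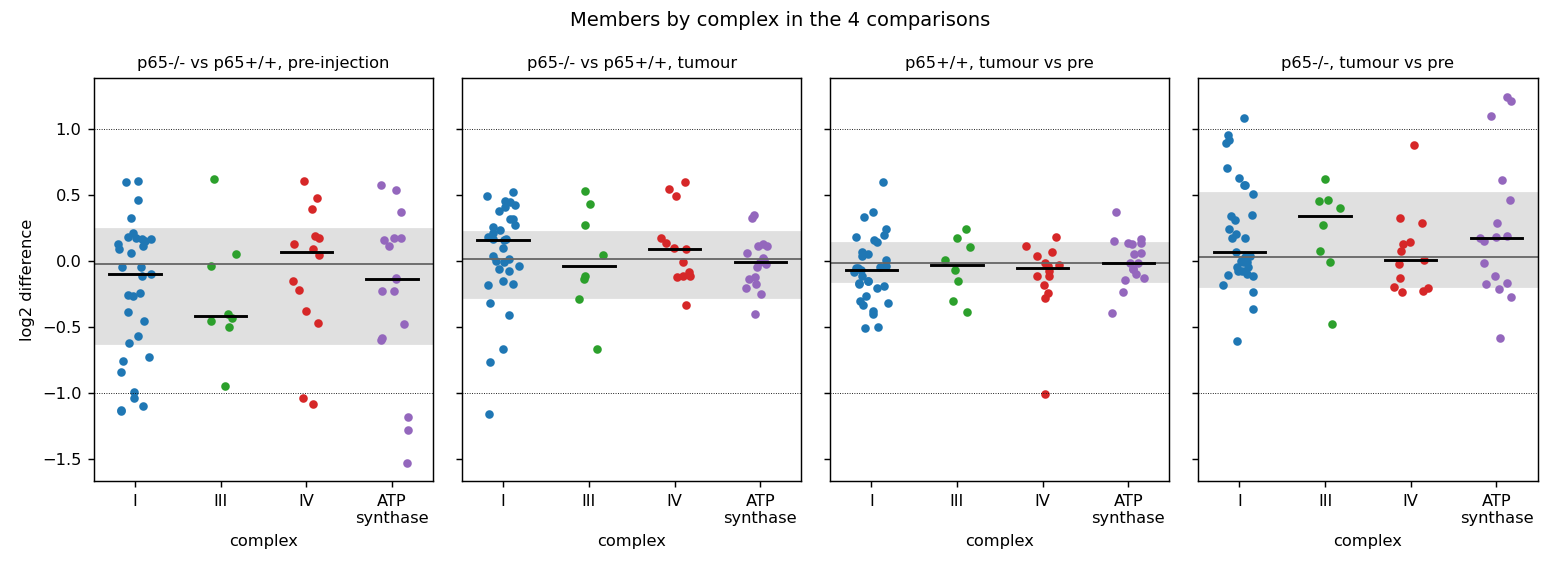
Each point is 1 gene and shows its log2 difference in 1 of the 4 comparisons, by complex, with the complex's median as a black bar, the middle 50% of all genes as a grey band and their median as a grey line. The spread is wide before injection and in the p65-/- tumour comparison, which share an array, and narrow in the other comparisons.

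Probe sets of 1 gene gave like values. Of the 37 members with at least 2 compared probe sets before injection, 26 had all of them on the same side of 0, and in 0 members did they differ by 2-fold. The widest range was 0.84 in Atp5j2, of whose probe sets the dim one (signals of 178 to 241) lay at 0.26. Of the 9 members lower by 2-fold, 7 rest on 1 probe set, so this comparison was possible only for Atp5pb and Cox6c. The probe set of Ndufa2 carries a suffix that marks possible binding of other transcripts. Probe sets of a gene often read the same stretch of the transcript and the same RNA, so their spread leaves out the spread between cultures.

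**Figure D3:**
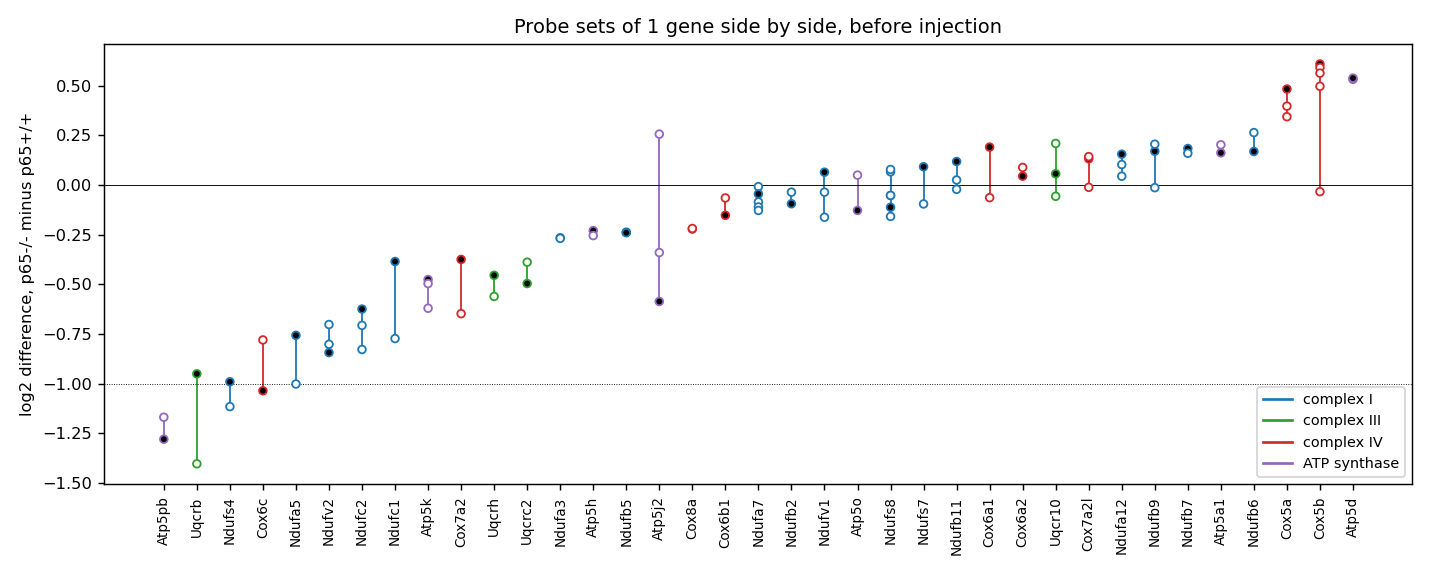
For each of the 37 members with at least 2 compared probe sets, points show the log2 difference of p65-/- minus p65+/+ cells before injection for each probe set, and black points the one that stands for the gene. The genes are ordered by their mean, from Atp5pb, with both probe sets under -1, to Atp5d, with both above 0.5.

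In tumour cells, the genotype difference of these genes was small. Of 71 members compared, 1 was lower (Ndufa2; background 5.43% of 12136 genes) and 0 were higher (background 2.65%). The median was 0.04 against 0.01 for all genes, and 66 of 71 (93.0%) lay within 1.5-fold, beside 80.1% of all genes. By complex the medians were 0.16 for complex I, -0.03 for complex III, 0.10 for complex IV and -0.01 for the ATP synthase. Ndufa2 differed by -1.16 and was lower by 2-fold under each of the 11 alternative settings tried, from -1.16 to -1.01. It has 1 probe set with signals far above the floor. The settings that alter the floor or the probe set rule therefore could not change its value. The lowest after it were Ndufa6 at -0.76, Ndufs4 at -0.67 and Uqcrb at -0.66. At the upper end stood Cox7a2l at 0.60, Cox4i1 at 0.55, Uqcrc1 at 0.53, Ndufa10 at 0.52 and Cox5b at 0.49.

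The genotype comparisons before injection and in tumour cells share no array. Over the 71 members compared in both, their differences had a Pearson correlation of 0.58 and a Spearman correlation of 0.52, against 0.47 and 0.46 over 11888 genes. These are correlations across genes of 4 libraries, and genes are not independent replicates. There were 25 members below 0 in both states, 24 above 0 in both, 15 below 0 only before injection and 7 below 0 only in tumour cells. In the same order, the counts over the 11888 genes were 4105, 3926, 2195 and 1659. Of 16 members lower by 1.5-fold before injection and 4 in tumour cells, Ndufa2, Ndufa6, Ndufs4 and Uqcrb stood in both groups, 4 of 16 and 4 of 4. Over all genes the genes lower in both were 32.1% of those lower before injection and 69.9% of those lower in tumour cells. Of the ATP synthase genes lowest before injection, Atp5j was at -0.17, Atp5md at -0.25 and Atp5pb at -0.40 in tumour cells, where Atp5pb was the lowest of the 17 compared.

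**Figure D4:**
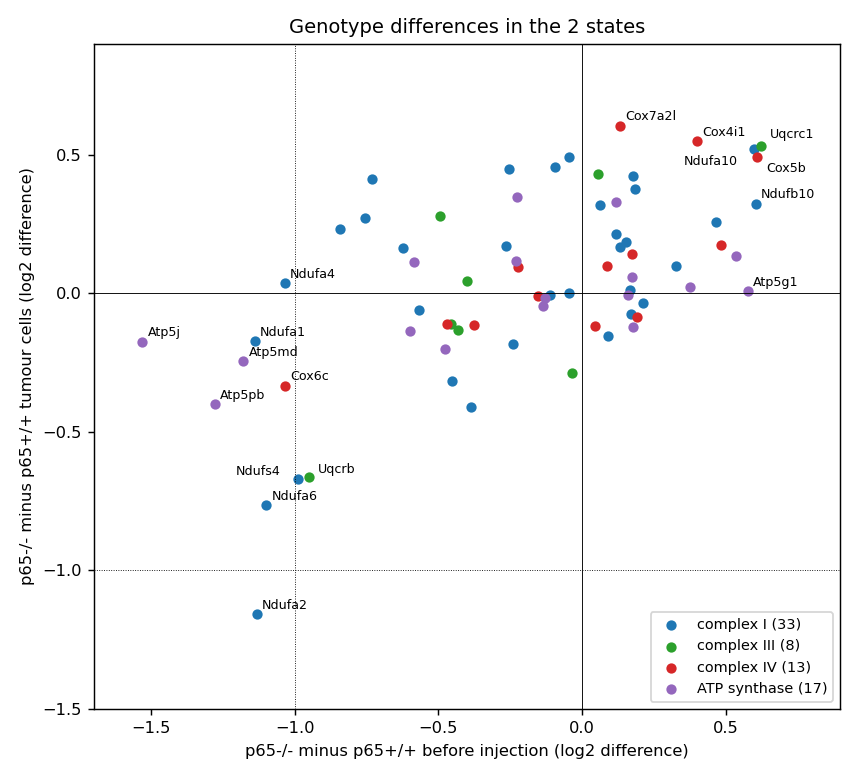
Each point is 1 gene, placed by its log2 difference of p65-/- minus p65+/+ cells before injection (horizontal) and in tumour cells (vertical), coloured by complex, with dotted lines at 2-fold. Ndufa2, Ndufa6, Ndufs4 and Uqcrb lie low on both axes, Atp5j, Ndufa1 and Ndufa4 low on the horizontal axis only, and Uqcrc1, Cox5b and Ndufa10 high on both.

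Some chromosomes had medians away from 0. Members on several chromosomes, some of them with medians near 0, are given beside the medians of the other genes there. On chromosome 13 the 453 genes outside the group had a median of -0.35 before injection, and 429 such genes had -0.32 in tumour cells. Ndufs4, Uqcrb and Uqcrfs1 lie there, with -0.99, -0.95 and -0.40 before injection and -0.67, -0.66 and 0.04 in tumour cells. On chromosome 18 the medians of the other genes were -0.32 and -0.29, and of the members there Ndufa2 had -1.13 and -1.16 while Atp5a1 had 0.16 and -0.01. Chromosome 3 had medians of -0.15 and -0.24, with Atp5pb at -1.28 and -0.40, Ndufc1 at -0.39 and -0.41 and Ndufb5 at -0.24 and -0.18. On chromosome 15, with medians of 0.01 and -0.05, lie Ndufa6 at -1.10 and -0.76, Cox6c at -1.04 and -0.33, Atp5g2 at 0.37 and 0.02 and Ndufb9 at 0.17 and -0.07. The X chromosome had -0.31 before injection and -0.09 in tumour cells, and Ndufa1 there had -1.14 and -0.17 while Ndufb11 had 0.12 and 0.22. Chromosome 16 had -0.18 and -0.03, with Atp5j at -1.53 and -0.17 and Atp5o at -0.13 and -0.02. Chromosome 1 had 0.02 and 0.14, with Cox5b at 0.61 and 0.49 and Ndufa10 at 0.60 and 0.52. Also on chromosome 1, Ndufb3 had -0.26 and 0.45 and Ndufs1 -0.73 and 0.41. Chromosome copy number was not measured, and its part in these values was not tested.

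**Figure D5:**
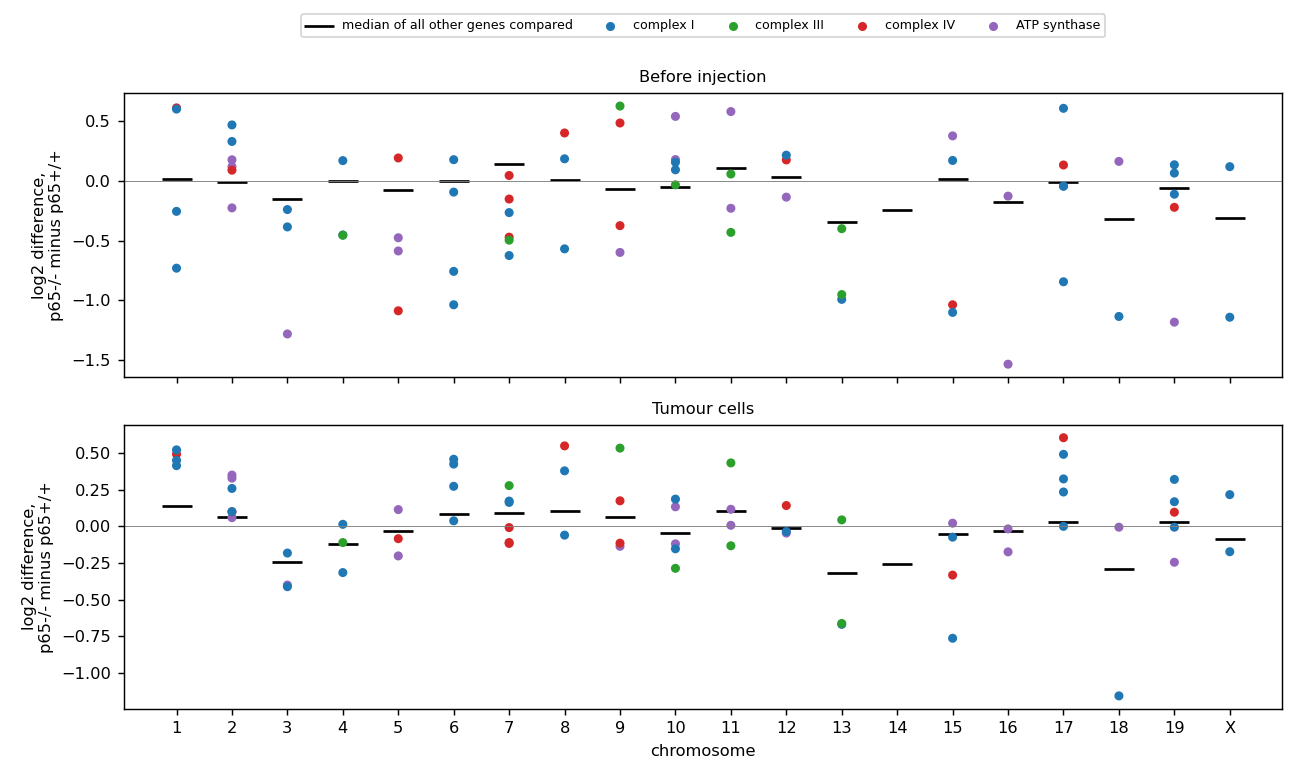
Points are members, coloured by complex, and black bars are the median of all other genes compared on that chromosome. The vertical axis is the log2 difference of p65-/- minus p65+/+ cells before injection (upper) and in tumour cells (lower), and on chromosomes 13 and 18 the bars lie below -0.29 in both.

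In p65+/+ cells, tumour and pre-injection arrays differed little in these genes. Of 72 members compared, 1 was lower (Cox7b2; background 0.751% of 11849 genes) and 0 were higher (background 0.962%). Cox7b2 was at least 2.01-fold lower, from the same signals given above. The median was -0.05 against -0.01 for all genes, and 70 of 72 (97.2%) were within 1.5-fold, beside 93.3% of all genes. The medians by complex ran from -0.07 in complex I to -0.01 in the ATP synthase. The largest other value was that of Ndufs4 at 0.60, with 0.60 from its second bright probe set. Ndufv3 at -0.51 and Ndufv2 at -0.50 were the lowest measured on both arrays, and Uqcrc1 was at -0.39.

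The p65-/- tumour cells were compared with the p65-/- pre-injection array, the same one that enters the genotype comparison before injection, so both sets of values move with it. Of 71 members compared, 4 were higher (background 13.6% of 12609 genes) and 0 were lower (background 1.47%). The 4 were Atp5pb at 1.25, Atp5j at 1.21, Atp5md at 1.11 and Ndufs1 at 1.09. The median was 0.13 against 0.03 for all genes, with 0.34 in complex III, 0.18 in the ATP synthase, 0.07 in complex I and 0.01 in complex IV. Ndufs1, the largest core subunit of complex I, had signals of 872, 839, 526 and 1118, so the p65-/- arrays were the lowest and the highest of the 4. Ndufa4 at 0.96, Ndufs4 at 0.92, Ndufa1 at 0.90 and Cox6c at 0.88 came next. At the other end were Ndufb10 at -0.60, Atp5g1 at -0.59, Uqcrc1 at -0.48 and Ndufs3 at -0.36. Under quantile normalization, percentile scaling and cyclic loess 0 members were higher, beside 9.39%, 8.67% and 10.8% of all genes.

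When the p65-/- tumour array was set against p65+/+ pre-injection cells, a comparison that leaves the p65-/- pre-injection array out, 1 of 72 members was lower (Cox7b2; background 3.73%) and 0 were higher (background 1.82%). The median was -0.01. Atp5j was then at -0.32, Atp5md at -0.08 and Atp5pb at -0.03, while Ndufa2 was at -0.82 and Ndufa6 at -0.52. Of the 70 members above the floor on all arrays, 32 had their lowest signal on the p65-/- pre-injection array, 20 on p65+/+ tumour, 10 on p65+/+ pre-injection and 8 on p65-/- tumour. The p65-/- pre-injection array also held the highest signal of 22 members, more than any other array (19 on p65+/+ pre-injection), so the members spread in both directions on it. The same counts were not made over all genes, so they do not set the members apart from other genes.

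The difference between the tumour changes of the genotypes draws on all 4 arrays. Of 71 members, 5 had a difference of 2-fold or more toward p65-/- cells (background 15.7% of 11455 genes) and 0 toward p65+/+ cells (background 2.64%). The median was 0.20 against 0.08 for all genes. The 5 were Atp5j and 4 genes counted with complex I by symbol, Ndufs1, Ndufv2, Ndufa4 and Ndufa5.

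Genes that work beside the members were read from lists on the same arrays. Complex II and cytochrome c had 0 of 6 genes lower and 0 higher before injection: Sdha at -0.65, Sdhb at 0.48, Sdhc at 0.32, Sdhd at -0.29, Cyc1, the cytochrome of complex III, at 0.47, and Cycs, cytochrome c, at -0.69. Outside the rule, the complex I subunit Ndufab1 was at 0.14 and Ndufa4l2, a paralogue of Ndufa4, at 0.27. Of 37 assembly factors compared, 3 were lower (8.11%, beside 17.7% of all genes) and 1 was higher (2.70%, beside 2.05%). Those lower were Ndufaf2 at -1.69, Sdhaf2 at -1.28 and Coa6 at -1.03. Nubpl, a factor that delivers iron-sulfur clusters to complex I, was the higher one at 1.21. Under quantile normalization, percentile scaling and cyclic loess 1 was lower in each case, beside 12%, 11.6% and 14.5% of all genes. With these scalings 5, 3 and 1 were higher, beside 6.99%, 6.31% and 3.10% of all genes. In tumour cells Nubpl was at 1.13, Cox20, which aids complex IV assembly, at 1.22 and Ndufaf4 at -1.06. Of the carriers that feed the ATP synthase, 0 of 3 were lower: the phosphate carrier Slc25a3 was at 0.11 and the ADP/ATP carriers Slc25a4 and Slc25a5 at -0.68 and -0.76.

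The regulators of mitochondrial gene expression included 5 of 14 genes lower before injection and 0 higher, with a median of -0.42, beside 17.7% of all genes lower. Under quantile normalization 2 of 14 were lower, a share near the 12% of all genes, and 3 of 14 with each of the other scalings, beside 11.6% and 14.5%. Gabpa, the DNA-binding subunit of the ETS factor GABP, had signals of 758, 655, 123 and 491 and a difference of -2.62. The p65-/- pre-injection array was low and the other 3 were closer together. Lrpprc, which stabilizes mitochondrial mRNA, was at -1.75, Yy1 at -1.45, Tfb2m at -1.19 and Tfam, which packs and transcribes mitochondrial DNA, at -1.19. In tumour cells 0 of 15 differed by 2-fold between genotypes (beside 5.43% of all genes lower and 2.65% higher), and Gabpa was at -0.41. Nrf1 was at -0.02 before injection, and Ppargc1a was below the floor on all arrays. Of 16 genes of the TCA cycle and pyruvate dehydrogenase, 4 were lower (25%, beside 17.7% of all genes) and 0 higher (beside 2.05%). The 4 were Sucla2 at -2.07, Dld at -1.91, Pdha1 at -1.32 and Idh3a at -1.02. Under the 3 scalings 2, 2 and 3 were lower, beside 12%, 11.6% and 14.5% of all genes. Of 76 subunits of the mitochondrial ribosome, 9 were lower (11.8%, beside 17.7%) and 0 higher (beside 2.05%), with a median of -0.05.

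The p65-/- pre-injection array was also lower in bright genes as a class. Among 1566 genes with a mean signal of at least 1000, a limit set after the values were seen, 29.2% were lower by 2-fold before injection and the median was -0.38. The 59 members in that range had 6 lower, a share of 10.2%, and a median of -0.05. Cytosolic ribosomal protein genes, another group of bright housekeeping genes, had 1 of 38 lower (2.63%) and a median of -0.03. Constitutive proteasome subunits had 7 of 34 lower (20.6%) and a median of -0.26. Of all genes compared, 17.7% were lower. No test of these differences between groups of genes was made.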

How the data were processed

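Gene expression was measured on 4 Affymetrix arrays, 1 for each of 4 groups. Per the labels' protocols, 6 ug of Trizol-isolated total RNA were labelled with biotin. The values used are the deposited linear signals of the authors for 45037 probe sets. The sources used here do not give how probes were summarised or arrays scaled. A second table deposited by the authors holds a score, a signed ratio between the log2 values of 2 arrays, and it served only as an alternative: for member probe sets with signals of at least 300 on both arrays, 88.3% to 100% matched that ratio within 0.02, with the sign ignored where it lay within 0.02 of 1. Scanner intensities were not used.

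Probe sets were named from the platform annotation of 2016: 34945 had 1 gene, 932 several and 9160 none, and only the first kind entered counts. Positions came from the RefSeq gene table of GRCm38.p6, in which all 76 members were found. Signals below 1 were set to 1 and taken to log2. A gene's probe set was one that reached the floor, then one without a suffix for possible cross-hybridization, then the brightest by mean log2 signal. The floor was each array's median. Values under it were set to it, which gives "at least" values. The threshold was 2-fold, with no p-value, since 1 array a group leaves no residual degrees of freedom. The calculation was tested on simulated data with known changes.

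Genes named are members at 2-fold or more, the 3 largest and the smallest difference of each complex and comparison, fixed core subunits and tissue isoforms, complex II, and up to 4 genes at 2-fold of each list. Further genes were named after their values were seen. Lists held 42 assembly factors (40 with a probe set), 17 regulators (16), 17 TCA cycle genes (16), 4 carriers (4) and 7 genes of complex II and cytochrome c (7). Members and lists were chosen with earlier results of these data known. Alternatives were other normalizations, floors, pseudocounts, probe set rules, folds and a substituted array. Analyses used Python 3.11.15, numpy 2.4.6, pandas 2.3.3, R 4.3.3 and limma 3.58.1, with matplotlib 3.10.9 for figures.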

Additional observations from a re-analysis of the deposited data

Results flagged for a closer look

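For 5 members the tumour cells differed from pre-injection cells in opposite directions in the 2 genotypes, higher in p65-/- and lower in p65+/+ cells, with a difference of 2-fold or more between the changes. That difference was 1.36 on the log2 scale for Atp5j, 1.14 for Ndufs1, 1.08 for Ndufv2, 1.07 for Ndufa4 and 1.03 for Ndufa5. It was not tested, since each change rests on 1 array a group, and all 5 draw on the p65-/- pre-injection array. In p65+/+ cells the changes were -0.14 for Atp5j, -0.06 for Ndufs1, -0.50 for Ndufv2, -0.12 for Ndufa4 and -0.40 for Ndufa5, so those of Atp5j, Ndufs1 and Ndufa4 were no larger than the within-gene SD of all genes, 0.19. In p65-/- cells they were 1.21, 1.09, 0.58, 0.96 and 0.63.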

How the results depend on the processing

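Of the counts and medians of the members under each alternative, 114 stayed within 1.5 times or within the spread, 25 moved and 7 changed sign. Of the values of single members 1084 stayed, 31 moved and 3 changed sign. Before injection, 9 members were lower as reported and 1 after quantile normalization, 1 after scaling to the 75th percentile, 2 after cyclic loess, 17 at 1.5-fold, 4 in the authors' deposited table and 1 with the p65-/- tumour array substituted. For the authors' deposited table, folds are those its score implies with the lower of the 2 deposited signals, for genes above the floor on both arrays, and how it treats dim probe sets is unknown. Members higher were 4 at 1.5-fold and 1 in the authors' deposited table in place of 0. The median of -0.12 became 0.21, 0.25 and 0.16 under the first 3 of these. In tumour cells, 1 member lower became 2 without a floor and 4 at 1.5-fold, and 0 higher became 1 at 1.5-fold and 1 in the authors' deposited table. For the p65+/+ tumour change, 1 lower became 0 with quantile normalization, median centring, a floor at the 70th percentile and a pseudocount of 32, and 0 higher became 1 at 1.5-fold. For the p65-/- tumour change, 4 higher became 0 under quantile normalization, percentile scaling, cyclic loess and the p65+/+ pre-injection array in place of p65-/- pre-injection, and 12 at 1.5-fold, while 0 lower became 2 at 1.5-fold, 1 in the authors' deposited table and 1 with the substituted array. Its median of 0.13 became -0.12, -0.16, -0.10 and -0.0082 under the 3 normalizations and the substituted array. With that array Atp5j was at -0.32, Atp5md at -0.076 and Atp5pb at -0.032 in place of values above 1. In all genes the share of lower among 2-fold differences of this comparison was 9.75% as reported, 26.8% after quantile normalization, 24.9% after percentile scaling and 33.5% in the authors' deposited table. Beyond the substituted arrays, the cause was not tested. Using marked probe sets only where a gene had no other, an alternative added after the data were seen, changed the probe set of 193 genes and 3 members and left 9 members lower before injection. Transcript lengths and control probe sets were not analysed here. No paired analysis was possible because each group had 1 array, all with the number 1, so a block on it would hold every array.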

Other observations

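There were 9 further probe sets that the annotation gives to a member and to another gene at once, and they stand in no count above. The one for Ndufs5 and its pseudogene Ndufs5-ps had signals of 1657, 1771, 1277 and 1447 and a difference before injection of -0.38, beside -0.45 for the probe set of Ndufs5 alone. The one for Ndufs6, an accessory subunit of complex I, and Ndufs6b had 965, 1019, 914 and 1227, a difference of -0.08 before injection and 0.27 in tumour cells. For Ndufa11 and Ndufa11b the brighter probe set differed by -0.20 and -0.16. A probe set shared by Ndufb2 and Adck2 had 438, 337, 410 and 554, a difference of 0.72 in tumour cells, beside 0.46 for the probe set of Ndufb2 alone.

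Among the mitochondrial ribosomal proteins, Mrps18c at -1.82, Mrpl21 at -1.56, Mrpl39 at -1.55 and Mrps22 at -1.54 were lowest before injection. Mrpl55 was the only one at 2-fold in tumour cells, higher in p65-/- cells at 1.23. Of the TCA cycle enzymes, Fh1, fumarate hydratase, had signals of 1191, 964, 1093 and 1645 and stood at 0.77 in tumour cells, with the p65-/- tumour array above the other 3.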
